A study of Mus musculus with 2 samples.

Results

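Cav2, Cav1 and Met are neighbouring genes on mouse chromosome 6, and c-Fos peaks around them were taken from a chromatin immunoprecipitation and sequencing (ChIP-seq) peak list in mm9 coordinates. The peaks were chosen by position, as those with their centre between 17000001 and 18000000 on chromosome 6. This gave 25 of the 10870 peaks in the list. The locus itself was proposed with the list's dense regions known, so its density and spacing are descriptions. The cells were mouse bone marrow-derived mesenchymal stem cells, stromal cells with the capacity to become bone, cartilage or fat cells. Their genotype was p53 knockout with expression of c-Fos (p53 is a tumour suppressor), and they had been passaged fewer than 20 times. The group used here is 1 c-Fos ChIP library, made from 50000000 fixed cells with 10 ug of anti-c-Fos antibody. The series also lists 1 input library of the same cells, that is, DNA that was not immunoprecipitated, for which no values were analysed here. The labels name no replicate and no cells without c-Fos, so nothing below has a replicate error, and the comparisons are between regions of 1 list.

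Caveolin-1, the product of Cav1, is the main structural protein of caveolae, small flask-shaped pits of the plasma membrane that are abundant in mesenchymal cells. Caveolin-2, the product of Cav2, assembles with caveolin-1 and depends on it to reach the cell surface. Met encodes the receptor tyrosine kinase for hepatocyte growth factor, which drives cell scattering and growth. c-Fos and a Jun protein together make up AP-1, which binds the motif TGACTCA, and related dimers also bind the cyclic AMP response element TGACGTCA.

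The promoter windows of the 3 genes are shown because they differ in whether they hold the AP-1 motif. Each runs from 250 bases before to 50 bases after a gene start in the RefSeq table for GRCm38.p6. All 3 genes had an entry there, and all lie on the + strand. These positions belong to another build than the peaks and cannot be set against them. The windows are GRCm38.p6 chr6:17280935-17281234 for Cav2, chr6:17306085-17306384 for the first of the 2 windows of Cav1, and chr6:17463707-17464006 for Met. Capitals mark an AP-1 motif.
Cav2: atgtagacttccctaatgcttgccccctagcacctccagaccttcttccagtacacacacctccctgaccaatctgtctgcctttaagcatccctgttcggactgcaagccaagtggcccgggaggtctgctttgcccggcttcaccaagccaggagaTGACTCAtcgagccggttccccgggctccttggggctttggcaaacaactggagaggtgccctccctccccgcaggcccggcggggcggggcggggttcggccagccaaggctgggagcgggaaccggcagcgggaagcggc
Cav1: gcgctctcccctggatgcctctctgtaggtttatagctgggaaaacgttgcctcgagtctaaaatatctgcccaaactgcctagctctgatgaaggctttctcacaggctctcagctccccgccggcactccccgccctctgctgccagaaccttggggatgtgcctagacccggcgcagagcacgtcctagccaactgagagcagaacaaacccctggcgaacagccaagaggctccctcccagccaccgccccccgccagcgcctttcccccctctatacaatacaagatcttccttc
Met: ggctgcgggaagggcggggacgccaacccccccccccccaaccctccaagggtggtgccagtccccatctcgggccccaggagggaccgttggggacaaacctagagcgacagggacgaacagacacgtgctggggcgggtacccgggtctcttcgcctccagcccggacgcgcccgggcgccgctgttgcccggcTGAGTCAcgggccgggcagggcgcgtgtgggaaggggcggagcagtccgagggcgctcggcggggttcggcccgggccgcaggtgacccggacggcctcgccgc

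The motifs searched were TGACTCA, read on the other strand as TGAGTCA, and TGACGTCA, which reads the same on both strands. Neither motif contains the other. The Cav2 window held 1 AP-1 motif, which began 92 bases before the start, and the Met window held 1 that began 54 bases before the start. Both windows of Cav1 held 0. Over all 32851 promoter windows in the table, 1709 (5.20%) held the AP-1 motif and 588 (1.79%) held TGACGTCA, which was in none of the windows of the 3 genes. The windows were rich in G and C, at 64.3% for Cav2, 59.3% and 62.3% for Cav1, and 75.7% for Met, where the median window had 52.7%. A match describes these letters and does not show that c-Fos was bound there.

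The same search was made in other genes of both systems. Among 10 genes of caveolae, 9 were matched by symbol to a promoter window in the table, and 2 of these held the AP-1 motif, Cav2 and Pacsin2, which encodes a membrane-curving protein. Cavin3 was not matched. Among 16 genes of signalling by hepatocyte growth factor and Met, 14 were matched and 3 held the motif. These were Met, Shc1, an adaptor protein, and Spint1, an inhibitor of the protease that activates hepatocyte growth factor. Gab2 and St14 were not matched. Over all genes in the table, 1607 of 27025 (5.95%) held the AP-1 motif in at least 1 window. The lists include genes already printed above, Cav2 and Cav1 in the first and Met in the second. The counts are thus no independent comparison with that share, and they were not tested. TGACGTCA was in 0 of the 9 caveola genes and in 1 of the 14 others, Ptpn11, which encodes a phosphatase, against 549 of all genes (2.03%). Peaks near the other genes of these lists were not analysed here, because their mm9 positions were not at hand.

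The 25 peaks were unevenly spread over the genes. The spans of the genes are approximate mm9 positions in whole kb that came with the choice of the locus, so distances of about 1 kb or less are not resolved. In order along the chromosome, 15 peaks lay before Cav2, 1 lay in Cav2, 0 lay between Cav2 and Cav1 and 2 lay in Cav1. A further 2 lay between Cav1 and Met, 2 in Met and 3 after Met. Each peak carries the score that the authors deposited for it. The scale of the score is not stated in the file, and it serves here only to rank peaks within the list.

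**Figure D1:**
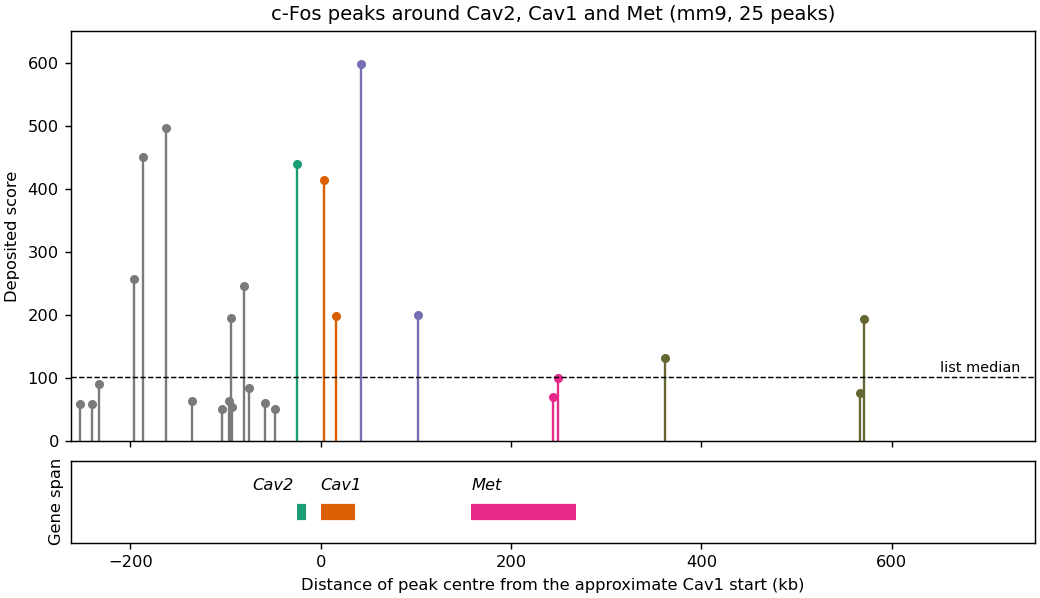
Deposited score of each of the 25 c-Fos peaks (upper panel, 1 stem per peak, coloured by gene span or interval) against the distance of its centre from the approximate start of Cav1 in kb, with the approximate mm9 spans of the 3 genes below and the median score of all 10870 peaks as a dashed line. Peaks of score over 400 stand on both sides of Cav2 and Cav1, and the 2 peaks in Met lie at or below the dashed line.

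At Cav2 the 1 peak lay at the approximate start of the gene. It ran over mm9 chr6:17230626-17231885 (1260 bp) and had a score of 439.87, higher than 96.9% of the peaks in the list. Its centre lay 255 bp past that start, a distance below what the whole-kb position resolves, so whether the peak covers the annotated start is not known. With the gene spans narrowed by 1 kb, 0 peaks were left in Cav2. Whether the AP-1 motif of the printed Cav2 window lay inside the peak was not analysed here. The rest of the Cav2 span, 9.0 kb in all, and the 16.0 kb between Cav2 and Cav1 held no other peak.

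Cav1 had 2 peaks inside its span and the highest-scoring peak of the locus just past its end. The first ran over mm9 chr6:17258972-17260105 (1134 bp, score 413.41), and its centre lay 3.54 kb inside the approximate start. Its near edge was 2.97 kb from that start, so no peak in the list covered the approximate start of Cav1. The 2 promoter windows of Cav1 belong to 2 different starts in the RefSeq table. Only the 1 approximate mm9 start was used for these distances. The second, at mm9 chr6:17271671-17272705 (1035 bp), lay deeper in the gene and had a score of 198.33. Both scored above most of the list, higher than 96.2% and 81.1% of all peaks. The peak past the end of Cav1 ran over mm9 chr6:17297488-17298861 (1374 bp), with its centre 6.17 kb beyond the gene. Its score of 597.68 was the highest of the 25, at rank 114 of 10870 and rank 14 of the 817 peaks on chromosome 6. It was also the widest of the 25, and the only 1 among the widest 5% of the list (1312 bp or more).

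The peak at Cav2, both peaks in Cav1 and both between Cav1 and Met followed each other without a peak of lower score than 198.33. That score is the lowest of these 5 themselves, so it is a description and no level set beforehand. The last of these 5 was at mm9 chr6:17357778-17358907 (1130 bp, score 199.22), 60.2 kb from the highest-scoring peak. Each of the 5 scored higher than at least 81.1% of the list. In the RefSeq table for GRCm38.p6, the long noncoding RNA gene Gm46953 and the small nuclear RNA gene Gm25021 come between Cav1 and Met in order of start position. Overlaps between these genes were not checked. Whether a peak lay in Gm46953 or Gm25021 was not analysed here.

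The peaks of Met lay away from its start and had lower scores than those of the caveolin genes. No peak in the list lay near its approximate start. The nearest on the side of Cav1 was the peak of score 199.22, with its centre 55.7 kb before the start, and the nearest inside Met was 85.9 kb past it. The 2 peaks inside Met lay in the last part of its 110.0 kb span, at mm9 chr6:17499451-17500416 (966 bp) and mm9 chr6:17504719-17505496 (778 bp). Their scores were 69.92 and 100.60, higher than 26.6% and 49.7% of the list. The second peak in Met was thus close to the list's median of 101, and both scored below each of the 3 peaks in Cav2 and Cav1. The nearest edge of any listed peak was 55.1 kb from the approximate start. Sites of score below the lowest deposited score, 50.01, are not in the list. With 2 peaks in Met and 3 in the caveolin genes, these are descriptions without a test.

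**Figure D2:**
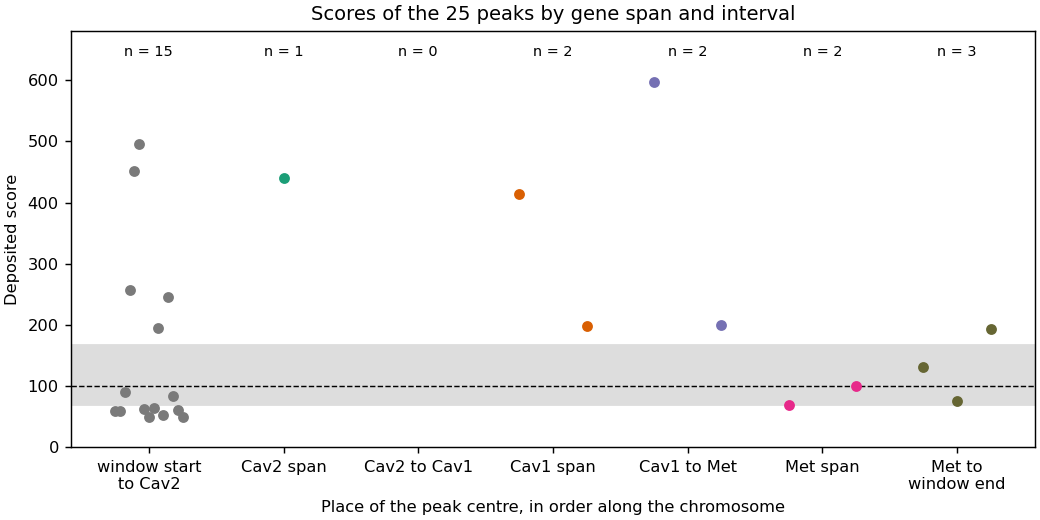
Deposited score of the 25 peaks (1 point each) by the gene span or interval that holds the peak centre, in order along the chromosome, with the median of all 10870 peaks as a dashed line and the lower to upper quartile of the list (68.5 to 168) as a grey band. The peaks in Cav2, in Cav1 and between Cav1 and Met all lie above the band, and 10 of the 15 peaks before Cav2 score under 100.

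The 231.0 kb before Cav2 held 15 peaks, or 6.49 per 100 kb. This was 11.6 times the 0.559 per 100 kb of chromosome 6 between its first and last peaks. That average includes long stretches without peaks. Stretches of like length in other dense windows were not measured, so the ratio does not set this one apart from them. In the RefSeq table for GRCm38.p6, the protein-coding gene before Cav2 is Tes, which encodes testin, a protein of focal adhesions. The long noncoding RNA genes Gm4876, D830026I12Rik and Gm52892 come between Tes and Cav2 there in order of start position, and overlaps were not checked. Which of the 15 peaks lay in these genes was not analysed here.

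Scores in this stretch fell into a few high ones and many near the lowest in the list. The 15 ran from 50.08 to 495.96, with a median of 63.5, below that of all peaks (101). The highest were at mm9 chr6:17092729-17093974 (score 495.96) and mm9 chr6:17069151-17070287 (score 450.83), whose centres lay 23.6 kb apart. Another, at mm9 chr6:17058944-17060071 (score 256.39), lay 10.2 kb from the latter. Together these made a group of 3 consecutive peaks of high score. Nearer to Cav2 were the peaks at mm9 chr6:17174532-17175660 (score 245.85) and mm9 chr6:17160984-17161970 (score 195.62). The other 10 scored between 50.08 and 90.66. The 2 lowest, at 50.08 and 50.11, ranked 10859 and 10855 in the list.

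Some of these peaks lay close enough to be parts of 1 region. The peak of score 195.62 had a neighbour on each side, of scores 63.53 and 53.48, with 387 bp and 46 bp between their edges. Joined, the 3 would cover 3092 bp, at mm9 chr6:17159583-17162674. With the peak of score 50.11, they made up the only run of 4 in which each centre lay within 10 kb of the next. Another 4 close pairs lay in the locus, with 13 peaks standing singly. The pairs were 2 before Cav2, 1 in Met and 1 after Met.

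Past Met the peaks thinned out. In the RefSeq table, Capza2, which encodes an actin-capping subunit, St7 and Wnt2, a secreted signalling ligand, follow Met in this order. The 476.0 kb after Met held 3 peaks, or 0.630 per 100 kb, close to the density of chromosome 6. They were at mm9 chr6:17617600-17618600 (score 132.00), mm9 chr6:17821591-17822527 (score 76.28) and mm9 chr6:17826376-17827319 (score 193.64). All 3 gaps of over 100 kb between neighbouring centres lay from the last peak before Met onward. They were 142 kb across the start of Met, 113 kb from Met to the next peak and 204 kb within the last stretch. The first 300 kb of the window, a division made after the positions were seen, held 19 of the 25 peaks, and the last 700 kb held 6.

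The peaks stood as a group apart from their surroundings. They spanned 825 kb, with 1.27 Mb to the nearest peak centre before them and 2.16 Mb to the nearest after. Gaps as long as these made up 3.47% and 1.67% of all gaps between neighbouring centres on chromosomes 1 to 19 and X, whose median was 65.1 kb. The nearest peaks outside were at mm9 chr6:15731634-15732342 (score 60.33) and mm9 chr6:19987490-19988399 (score 62.82). The first and last peaks inside lay 3.31 kb and 173 kb from the window's edges. The neighbouring 1 Mb windows held 0 peaks on either side. Many other windows of chromosome 6 also held 0 peaks, so empty neighbours alone do not set the locus apart.

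Counted over the 2565 windows of 1 Mb that tile chromosomes 1 to 19 and X between their first and last peaks, 5 (0.195%) held at least 25 peaks, this one among them. The locus shared the fourth place by count, and the fullest window held 29. With the grid moved by 500 kb, the locus fell into windows of 21 and 4 peaks and was no longer among those of at least 25, which then made up 0.0389%. On chromosome 6 it was, on the first grid, the fullest of 147 windows, the next holding 21, and the median over all windows was 3. The locus was proposed with the list's dense regions known, so its rank is a description.

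**Figure D3:**
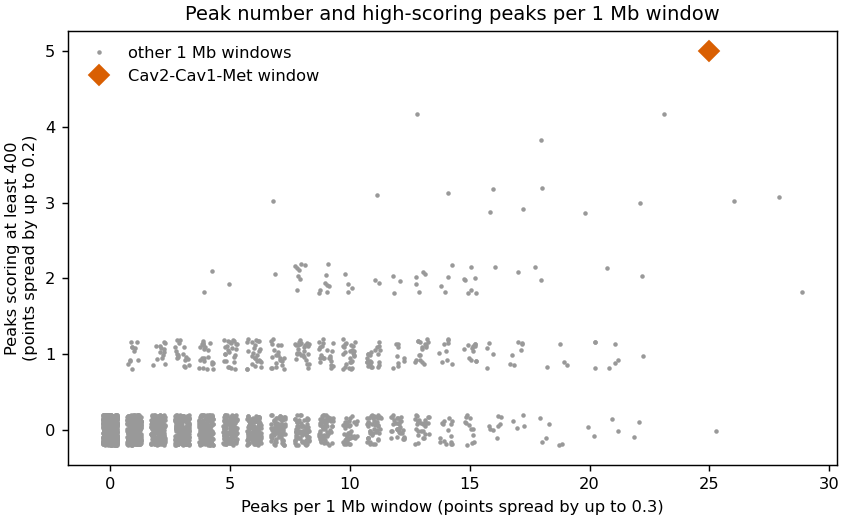
Number of peaks scoring at least 400 against the number of all peaks in each of the 2565 windows of 1 Mb, 1 point per window, with the points of other windows spread at random by at most 0.3 across and 0.2 up or down so that they can be seen. The window of Cav2, Cav1 and Met (diamond, not spread) stands at 25 peaks and 5 of score at least 400, and the other windows of this grid at 4 or fewer of that score.

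The typical peak of the locus scored much like that of the list, while scores of at least 200 and of at least 400 made up larger shares than in the list. The median score was 101 in both, and 13 of 25 (52.0%) scored at least 100, against 5507 of all peaks (50.7%), 55.2% on chromosome 6 and 55.5% in the other windows of at least 20 peaks. A score of at least 200 was reached by 7 of 25 (28.0%), against 18.6% of the list and 25.1% of chromosome 6. A score of at least 400 was reached by 5 of 25 (20.0%), against 456 of all peaks (4.20%) and 7.96% on chromosome 6. These 5 were 2 peaks before Cav2, the 1 at Cav2, the first in Cav1 and the 1 past the end of Cav1. On this grid, 1 window of the 2565 (0.0390%) held 5 such peaks, the one of this locus, while 3 windows did on a grid moved by 500 kb. The level of 400 was set after the scores were seen, and the place of the locus depends on it too. At least 300 gave 5 peaks here and 6 windows with at least as many, while at least 500 gave 1 peak here and 201 windows with at least as many.

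The other 23 windows of at least 20 peaks held 508 peaks in all. Against them the locus had the larger share of scores of at least 400, a level set after the scores were seen. The window of 23 peaks from 129000001 on chromosome 8 came nearest in number, with 4. Of the 508 peaks, 30 (5.91%) scored at least 400 and 22.4% at least 200, against 28.0% at least 200 in the locus. At least 100 was reached by 52.0% in the locus and by 55.5% of these 508 peaks. Their median score was 114, and the locus was at place 18 of the 24 windows by median score, which ran from 84.2 to 181. No test was made of these differences, since peaks of 1 library are not replicates.

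Peaks of the locus were also close together. The median distance to the nearest peak centre was 10.2 kb, against 27.3 kb over the list and 11.9 kb in the other windows of at least 20 peaks. A neighbour within 10 kb was present for 12 of 25 (48.0%), against 2967 of all peaks (27.3%) and 44.1% in those other windows. The short distances were thus near those of other dense windows.

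Within the locus, peaks of higher score were wider. The narrowest was 658 bp and the widest 1374 bp. The median width was 987 bp in the locus, compared with 949 bp in the list. Between score and width, Spearman's rho was 0.82 over the 25 peaks, where the list gave 0.70. All points come from 1 library, and a score can itself depend on the width of a peak, so rho is a description. The 25 peaks covered 25.1 kb, or 2.51% of the window.

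**Figure D4:**
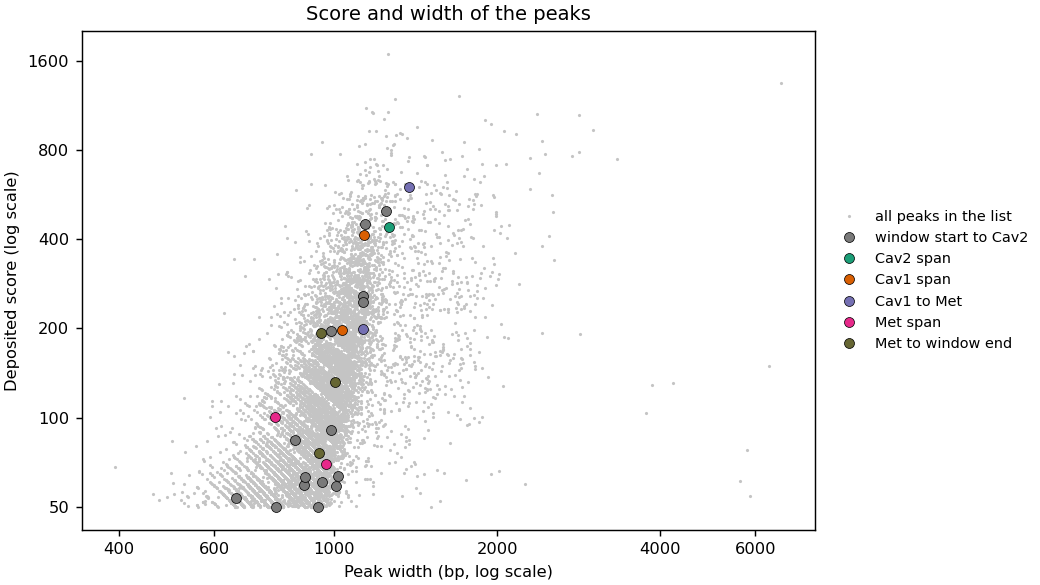
Deposited score against peak width in bp, both on log scales, for all 10870 peaks (small grey points) and the 25 peaks of the locus (large points, coloured by gene span or interval). The 5 peaks of score at least 400 are also among the wider ones of the locus, at 1134 to 1374 bp, and lie within the cloud of the list.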

How the data were processed

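The data used were 1 list of c-Fos ChIP-seq peaks, grouped by the antibody in the labels. The score is the authors' deposited value per peak. MACS 1.4.1, CASAVA 1.8.2 and the build mm9 appear in the submitters' processing notes, with no roles given. The aligner, filters, peak threshold and use of the input were not given in the sources used here. Starts were raised by 1 to be 1-based, and a peak was placed by its centre. The spans of Cav2, Cav1 and Met are approximate mm9 positions given with the choice of the locus. The RefSeq tables are on GRCm38.p6 and gave only gene order and promoter sequence, with no conversion between builds.

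The members and lists were chosen with earlier results of these data known. All 25 peaks could be named by rule. No test was made, since there is 1 library. Read depth is unknown, so no interval from read counts is given. Counting and joining were tested on simulated positions. The alternatives tried were a score minimum of 100, the list without its widest 5%, joining peaks within 2 kb, placement by overlap of 1 bp, gene spans changed by 5 kb or 1 kb, and a grid moved by 500 kb. Python 3.11.15, numpy 2.4.6, pandas 2.3.3, scipy 1.17.1 and matplotlib 3.10.9 were used.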

Additional observations from a re-analysis of the deposited data

How the results depend on the processing

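Of 20 recomputed values set out beforehand, 15 stayed close and 5 moved. Several alternatives kept nearly the same peaks, 24 with the widest 5% left out and 23 after joining. The number that stayed close therefore does not measure robustness. Close means within 1.5 times a count, or within the main value's 95% interval. By order statistics over the 25 peaks, which cover counting only, this ran from 63.5 to 199 for the median score, from 937 to 1128 bp for the median width and from 5.59 to 12.7 kb for the median distance. For the share of windows it was a Wilson interval of 0.0833% to 0.456%. These intervals treat peaks and windows as independent draws, which those of 1 library are not known to be. They serve only to set what is called close. A score of at least 100, a filter that itself raises scores and distances, left 13 peaks in the window, with a median score of 246, a width of 1129 bp at the median and a median of 23.6 kb to the nearest peak. With the grid moved by 500 kb, 0.0389% of the windows held at least 25 peaks, and the 25 peaks fell into windows of 21 and 4. The count in the 3 gene spans was 5 with spans widened by 5 kb and 4 with spans narrowed by 1 kb, which left 0 peaks in Cav2, since its peak lies at the approximate start. For the windows with at least as many peaks scoring 400 or more, the values added after seeing the data were 6 at a score of at least 300, 201 at a score of at least 500, and 3 with the moved grid. Without read counts, the number of sites under the lowest listed score has no estimate here. No paired analysis was possible because the labels name 1 ChIP library.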
